A study of Mus musculus with 4 samples.

Results

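The adrenergic, angiotensin and endothelin genes were taken from left ventricles at 7 days after myocardial infarction (MI), when noradrenaline, angiotensin II and endothelin-1 act on the surviving muscle, the vessels and the forming scar. The members were 9 genes, namely Adrb1, Adra1a, Adra1b, Agt, Ace, Agtr1a, Edn1, Ednra and Ednrb, and were found as the array probes whose gene name was one of these. They had 19 probes of the 41174 non-control probes on the array. MI was made in 8- to 10-week-old mice labelled male by permanently tying the left anterior descending coronary artery, and every heart compared here had been infarcted. KDM5B-knockout (KO) mice lacked the histone demethylase KDM5B through a CRISPR/Cas9 deletion with a frameshift in the part of Kdm5b that encodes its catalytic JmjC domain, on a C57BL/6 background. Wild-type (WT) mice were the controls. Each group had 2 one-colour Agilent arrays of total RNA, numbered 2 and 3 in the titles and called WT 2, WT 3, KO 2 and KO 3 here. Nothing in the labels states whether an array stands for 1 mouse or several, so the spread between arrays may in part be technical. Each value is a log2 signal from which the 75th percentile of the same array was subtracted, and each difference is KO minus WT on that log2 scale. Levels are compared between arrays for 1 probe at a time, since probes differ in brightness.

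These 3 systems are the main neurohormonal drives of the failing heart. Noradrenaline acts through β1-adrenergic receptors, which raise cyclic AMP and contractility in cardiomyocytes, and through α1-adrenergic receptors, which signal through Gq and favour hypertrophy. Angiotensinogen is cut by renin and then by angiotensin-converting enzyme to angiotensin II, whose type 1 receptor raises vascular tone and promotes fibrosis, while endothelin-1 from endothelial cells constricts vessels through the ETA receptor and is cleared and counteracted through the ETB receptor. Blockers of the β1 receptor, of the converting enzyme and of the angiotensin receptor are standard treatment after MI.

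The probes on which the results turn are shown by the 5′ 30 bases of each 60-base probe, in lower case with no part marked, as given in the array files. Both tested probes of Agtr1a are included because they gave the same order of the arrays, and the 3 Ace probes because 1 of them lay on another chromosome. Positions are those of the files on build mm9 (NCBI37). Exon, intron and UTR positions of the probes were not determined, because no annotation of that build was used.
Adrb1, chr19:56799215-56799274, plus strand: gttggaaggccattttgcacagtgttaggc
Adra1b, chr11:43588814-43588873, minus strand: caatgctggccctttgatagggtcggaaaa
Agt, chr8:127080661-127080720, minus strand: cgtctccttggagactgcgctgaccgagaa
Agtr1a bright probe, chr13:30474638-30474697, plus strand: tcctccacatatatgtacatatgtatctct
Agtr1a dim probe, chr13:30473748-30473807, plus strand: ttaaaaagtatttcctccagctcctgaaat
Ace bright probe, chr11:105850398-105850457, plus strand: atgggggacatggtgtttgagtggaacata
Ace dim probe, chr11:105847371-105849357, plus strand: ttccacgttcctgcgaacgtgccatacgtc
Ace probe off the locus, chr10:115265923-115265982, minus strand: accaaccactctggaattagctgtatgata
The interval given for the dim Ace probe is longer than its 60 bases. The probe named Ace on chromosome 10 was not well above background on any array and was not tested. Testing required detection well above background in both samples of WT, of KO or of both, which held for 16 of the 19 probes and for at least 1 probe of every member. The other untested probes were 1 of the 2 Adra1b probes and 1 of the 4 Ednra probes. Each gene is given below by its brightest tested probe, which was well above background on all 4 arrays for all 9 members.

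The arrays also differed from each other within a genotype. Kdm5b, the deleted gene, was -0.87 and -1.81 on WT 2 and WT 3, and -2.40 and -2.26 on KO 2 and KO 3, lower on both KO arrays than on both WT arrays, and whether its probe lies inside the deleted bases was not determined. Marker genes of cardiomyocytes, 12 genes such as Myh6 and Tnnt2, averaged 6.41 and 5.35 on WT 2 and WT 3, and 7.31 and 4.57 on KO 2 and KO 3. The 8 macrophage markers averaged 3.02, 3.38, 1.82 and 3.69 in the same order, the 8 fibroblast markers 5.96, 6.02, 5.12 and 5.89, and the 8 endothelial markers 1.86, 2.01, 2.43 and 1.76. The 8 markers of smooth muscle and pericytes averaged 2.96, 3.51, 2.80 and 3.75. KO 2, labelled left ventricle, also carried atrial transcripts, and 4 of the 4 atrial markers were highest on it. Myl7, the atrial regulatory light chain, was 6.39 on KO 2 and between -0.70 and 0.23 on the other arrays, and Sln, encoding atrial sarcolipin, was 5.95 on KO 2 against -4.95 and -2.46 on WT 3 and KO 3 and not well above background on WT 2. Xist, the RNA of the silenced X chromosome of female cells, was detected well above background on WT 2 and KO 2 but not on the other arrays. The Y-linked Ddx3y was 1.95 on WT 3 and 1.65 on KO 3 and not well above background on either number 2 array. Array number therefore coincided with the Xist signal in both groups. The part of tissue makeup or of sex in the results below was not tested, and in bulk RNA fewer cells of a type and less RNA per cell cannot be told apart.

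**Figure D1:**
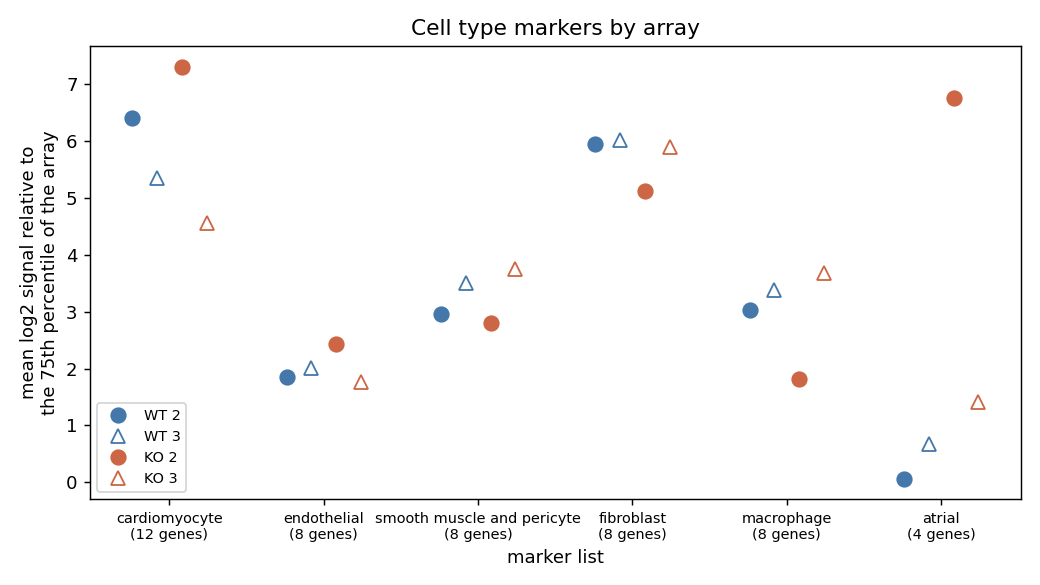
Mean log2 signal relative to the array's 75th percentile of the marker genes of each cell type, 1 point per array, with WT and KO in separate colours and open markers for number 3. Cardiomyocyte markers averaged 7.31 on KO 2 and 4.57 on KO 3, with both WT arrays between, and atrial markers averaged 6.76 on KO 2 against at most 1.42 on the other arrays.

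No member passed the test of KO against WT. Over all 28305 tested probes limma called 0 with adjusted p below 0.05 together with a change of more than 2-fold, which is 0% of those tested, and the lowest limma adjusted p was 0.9999, while 410 probes, or 1.45%, had an unadjusted p under 0.05. Of the 9 members, 0 had an unadjusted p under 0.05 and 0 differed by more than 2-fold in either direction, against 3.35% of all tested probes (1% higher and 2.35% lower in KO). The KO and WT arrays overlapped for all 9 members, whereas 23.9% of all tested probes had groups that did not overlap, 13.1% with KO above and 10.9% with KO below WT. On average 6 members were higher in KO and 3 were lower, and their median difference was 0.30, beside a median of 0.017 and 52.3% higher over all tested probes. The difference within an array number had opposite signs in number 2 and number 3 for 6 of the 9 members, which was near the 53.4% of all tested probes. The smallest two-sided p that an exact permutation test allows in this design is 0.333.

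**Figure D2:**
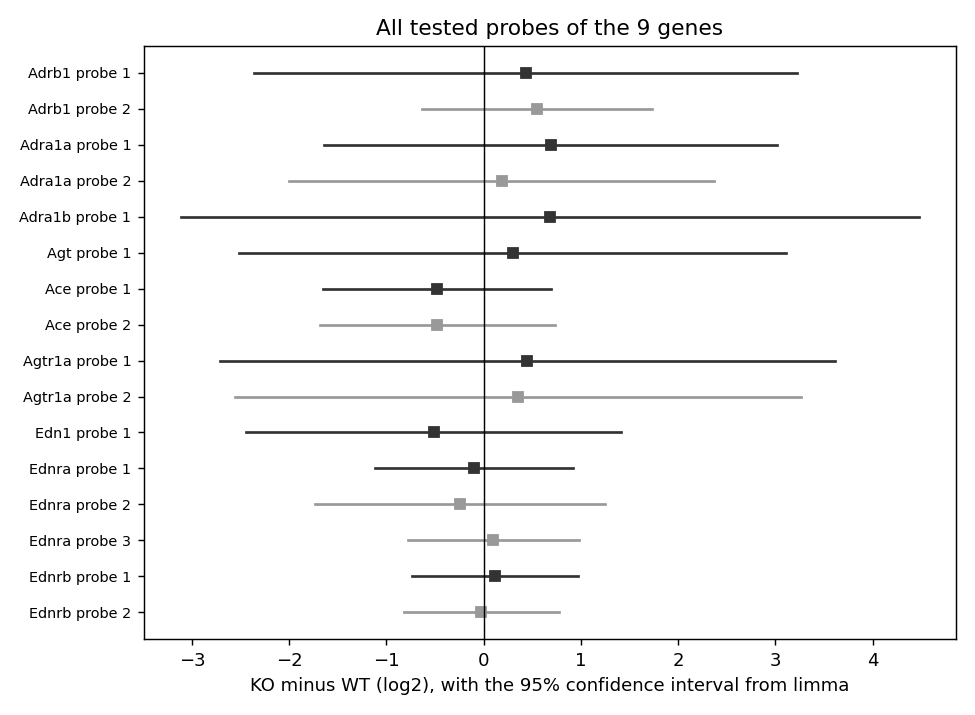
KO minus WT difference of each tested probe of the members, on the log2 scale, with the brightest tested probe of each member marked. Bars are 95% intervals from limma. By their brightest tested probe the members lay between -0.51 for Edn1 and 0.69 for Adra1a, all within 2-fold. Of all tested probes on the array, which are not drawn, 3.35% exceeded 2-fold.

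The adrenergic receptors were brightest on KO 2. Adrb1, the β1-adrenergic receptor of cardiomyocytes, was -0.17 and -1.43 on WT 2 and WT 3, and 0.78 and -1.52 on KO 2 and KO 3. KO 2 was the highest array and KO 3 the lowest, with both WT arrays between them. The difference was 0.43 ± 0.98 (SE, 95% interval -2.36 to 3.22). The dimmer Adrb1 probe, at chr19:56797242-56797301, read -3.90, -4.51, -3.26 and -4.04 in the same order of arrays and differed by 0.55 ± 0.41 (SE). Its KO array was the higher one in both array numbers, by 0.64 and 0.46, but KO 3 still lay below WT 2.

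Adra1a, the α1A-adrenergic receptor, was -3.90 and -4.62 on WT 2 and WT 3, and -2.54 and -4.59 on KO 2 and KO 3. KO 2 stood above the other 3 arrays, and KO 3 lay within 0.025 of WT 3. The difference was 0.69 ± 0.82 (SE, 95% interval -1.64 to 3.02). A second probe of Adra1a gave 0.18 ± 0.77 (SE), with KO higher by 1.02 in number 2 and a difference of -0.65 in number 3. Both probes of this gene were dim, with signals well below the 75th percentile on every array.

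Adra1b, the α1B-adrenergic receptor, had the widest span between arrays of the 9 members, 3.27. It was 1.11 and -0.41 on WT 2 and WT 3, and 2.66 and -0.60 on KO 2 and KO 3, so the 2 KO arrays were the highest and the lowest of the 4. The difference was 0.68 ± 1.33 (SE, 95% interval -3.11 to 4.47). The second probe, at chr11:43648881-43648940, was well above background on WT 2 and KO 2 only and was not tested.

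The angiotensin genes divided between a precursor and a receptor that were brightest on KO 2 and an enzyme that was brightest on WT 3. Agt, which encodes the precursor angiotensinogen and had 1 probe, was -1.23 and -1.52 on WT 2 and WT 3, and 0.23 and -2.39 on KO 2 and KO 3. The KO arrays again held both extremes, and the difference was 0.30 ± 0.99 (SE, 95% interval -2.51 to 3.11). Agtr1a, the type 1a angiotensin receptor, was 1.33 and 0.25 on WT 2 and WT 3, and 2.64 and -0.15 on KO 2 and KO 3. Its difference was 0.45 ± 1.11 (SE, 95% interval -2.71 to 3.61). The dim Agtr1a probe gave the same order of arrays at -2.71, -3.80, -1.64 and -4.16, with a difference of 0.36 and a standard error of 1.02. Agtr1b, the near-identical second copy of the receptor in mice, was not above the threshold for testing, and how far its RNA binds the Agtr1a probes was not tested.

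Ace, which encodes angiotensin-converting enzyme, a membrane enzyme of endothelial cells, was lower on average in KO. Ace differed by -0.014 in number 2 and by -0.95 in number 3, where Agt and Agtr1a were also lower in KO. It was 0.62 and 1.61 on WT 2 and WT 3, and 0.61 and 0.66 on KO 2 and KO 3. WT 3 stood apart from the other 3 arrays, which lay within a narrow range. The difference was -0.48 ± 0.41 (SE, 95% interval -1.66 to 0.70), and the dim Ace probe gave -0.48 ± 0.42 (SE). Without WT 3 the difference of the bright probe was 0.011, so the lower mean in KO rested on that array.

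Of the endothelin genes, the ligand was lower on average in KO and the differences of the receptors lay nearer to 0. Edn1, encoding endothelin-1, was -0.31 and 0.81 on WT 2 and WT 3, and -0.95 and 0.42 on KO 2 and KO 3. Its difference was negative in both array numbers, -0.64 and -0.39, but the groups overlapped because number 3 was higher than number 2 in both. The difference was -0.51 ± 0.68 (SE, 95% interval -2.45 to 1.42).

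Ednra, the ETA receptor of smooth muscle and cardiomyocytes, was 2.66 and 2.54 on WT 2 and WT 3, and 2.90 and 2.10 on KO 2 and KO 3. It spanned less than 1 log2 unit, and the difference was -0.10 ± 0.36 (SE, 95% interval -1.12 to 0.92). Of its other probes, 1 gave -0.25 ± 0.52 (SE) and 1 gave 0.097 ± 0.31 (SE), so its tested probes did not share a direction. The untested probe, at chr8:80184559-80184618, read -6.36 and -5.66 on the WT arrays and -7.63 and -6.87 on the KO arrays, and was well above background on WT 3 only.

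Ednrb, the ETB receptor of endothelial cells, was 0.48 and 1.09 on WT 2 and WT 3, and 0.89 and 0.93 on KO 2 and KO 3. Both KO arrays lay between the WT arrays. The difference was 0.12 ± 0.30 (SE, 95% interval -0.74 to 0.97), the narrowest interval among the 9 members, and the second probe gave -0.023 ± 0.28 (SE).

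**Figure D3:**
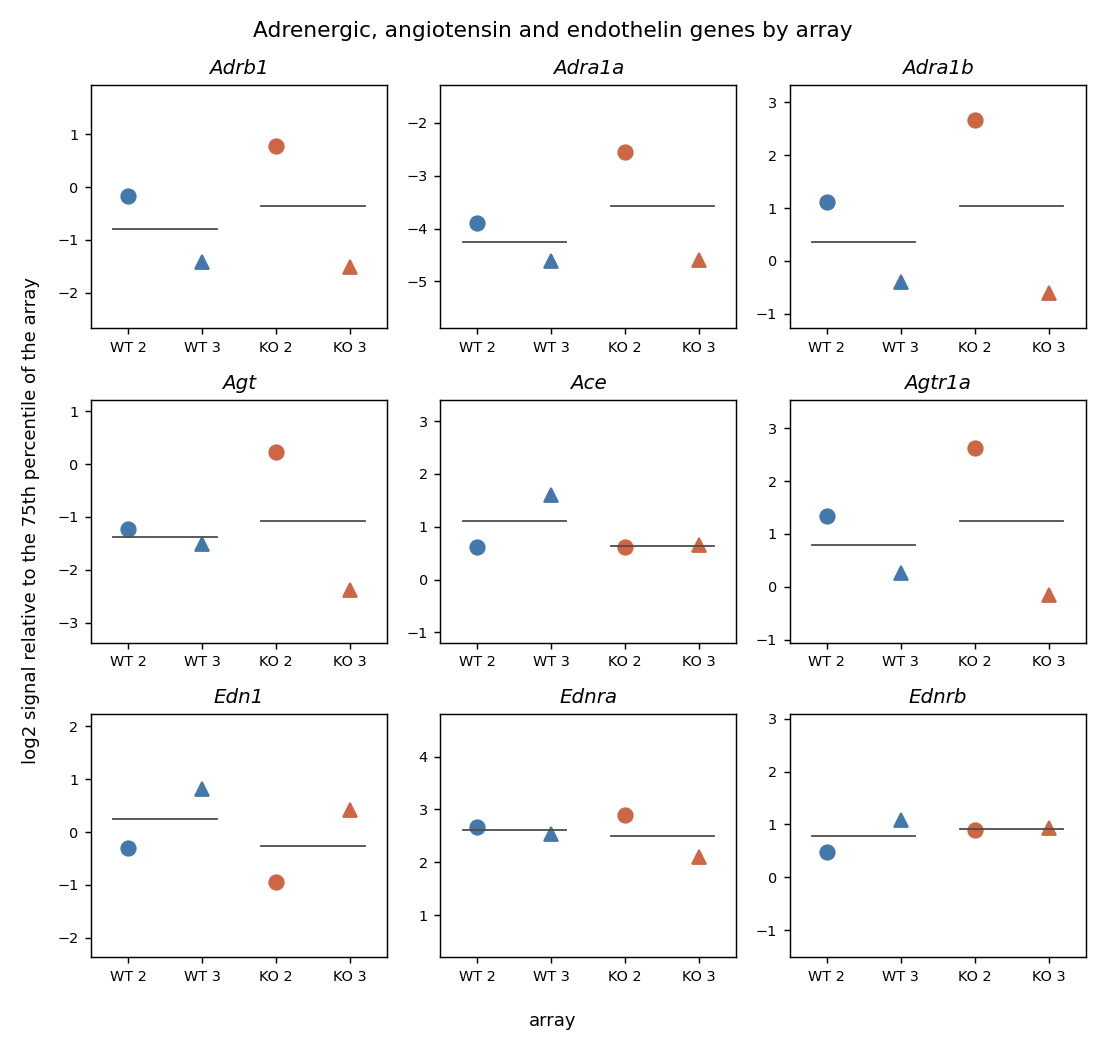
Log2 signal relative to the array's 75th percentile of each member's brightest tested probe on the 4 arrays, 1 point per array. KO 2 is the highest array for 6 of the 9 members, and for none of the 9 do both KO points lie on one side of both WT points.

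Within each array number 1 KO array faced 1 WT array, so these differences have no replicate and no test. In number 2, 7 members were higher in KO and 2 were lower, with a median of 0.96. In number 3, 1 member was higher and 8 were lower, with a median of -0.39. Over all tested probes both medians were 0.014. The difference in number 2 was 1.56 for Adra1b, 1.47 for Agt, 1.35 for Adra1a, 1.30 for Agtr1a and 0.96 for Adrb1, while in number 3 it was -0.20, -0.87, 0.025, -0.40 and -0.09 for the same genes. A difference over 2-fold within number 2 was found for 15% of all tested probes, and within number 3 for 4.01%. The cardiomyocyte markers had a median difference of 0.89 in number 2, where 11 of 12 were higher in KO, and of -0.78 in number 3, where 12 of 12 were lower. For the endothelial markers it was 0.55, with 8 of 8 higher, and -0.21, with 7 of 8 lower. For the macrophage markers it was -1.42, with 8 of 8 lower, and 0.26, with 7 of 8 higher. For the fibroblast markers it was -0.86, with 8 of 8 lower, and -0.0017, with 4 of 8 lower. Smooth muscle and pericyte markers had -0.26 and 0.12, with 4 of 8 higher in each number.

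**Figure D4:**
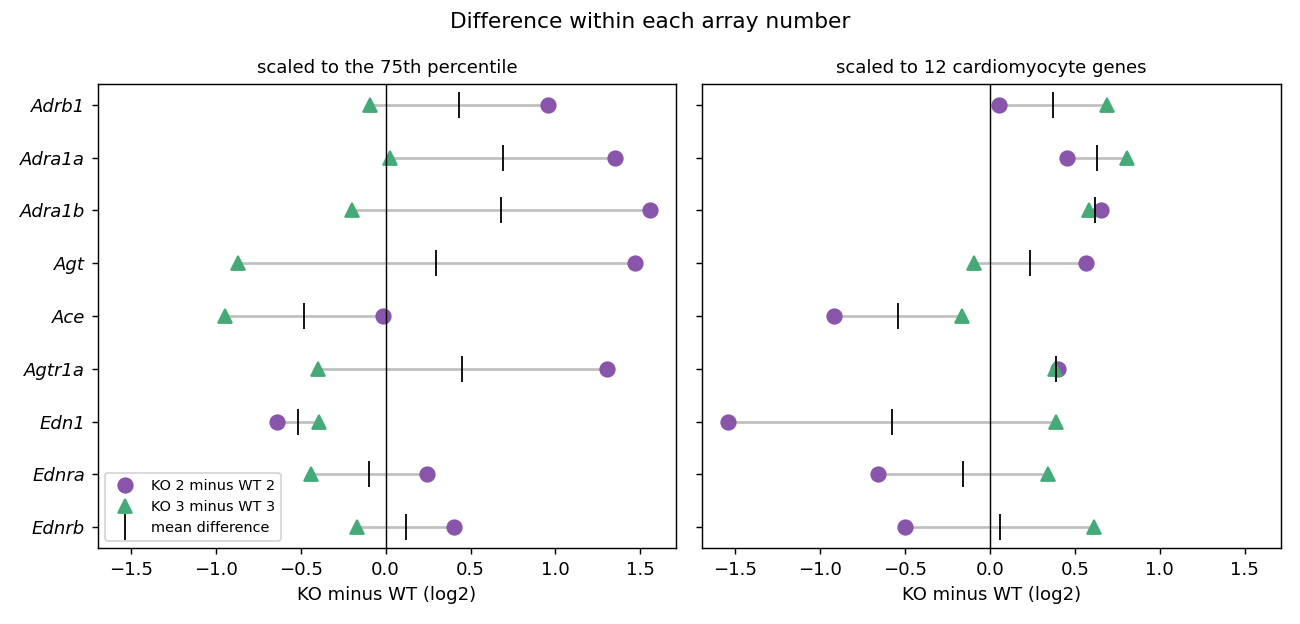
KO minus WT difference of each member's brightest tested probe, on the log2 scale, within array number 2 and within array number 3, 1 KO array against 1 WT array each. The 5 genes with the largest differences in number 2, from 0.96 to 1.56, lay between -0.87 and 0.025 in number 3.

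Number 3 lay below number 2 in both groups for 6 members and above it in both for 3, against 35.1% and 39.3% of all tested probes, and 6 members spanned over 1 log2 unit between arrays, against 34.7%. Adrb1, Adra1b, Agt, Agtr1a and Ednra, 5 of the 9, had the order KO 2, WT 2, WT 3, KO 3 from high to low, which 17.5% of all tested probes and 11 of the 12 cardiomyocyte markers had. The same order held for 1 of 8 endothelial and 1 of 8 smooth muscle and pericyte markers, and for 0 of 8 fibroblast and 0 of 8 macrophage markers. Edn1 and Ace had the order WT 3, KO 3, WT 2, KO 2. KO 2 was the highest array for 6 members, against 39.1% of all tested probes. It was also highest for 11 of 12 cardiomyocyte, 5 of 8 endothelial and 4 of 4 atrial markers, and for 2 of 8 smooth muscle and pericyte markers. KO 2 was the lowest array for 2 members, for 8 of 8 macrophage and 7 of 8 fibroblast markers, and for 11730 of the 28305 tested probes. Without KO 2, 2 members were higher in KO and 7 were lower, and Adra1b, Agt, Agtr1a, Adrb1 and Adra1a had differences of -0.95, -1.02, -0.94, -0.72 and -0.33, the opposite sign to that with all 4 arrays. Edn1 was 0.17 higher in KO without KO 2. Without WT 3 the differences also turned for Adra1b (-0.08), Agtr1a (-0.09), Adrb1 (-0.19) and Edn1 (0.046). Ednra turned to 0.30 without KO 3 and Ednrb to -0.19 without WT 2. Each of the 9 members thus had at least 1 array without which its direction changed. Where the KO arrays held both extremes, or both lay between the WT arrays, such a turn follows from that order. The share of all tested probes that turn in this way was not determined.

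The genes whose profile lay nearest to a member over the 4 arrays were found among 13413 genes, by the root mean square difference after each profile was centred on its own mean. Acadm and Pdhb, which encode mitochondrial enzymes of fatty acid and pyruvate oxidation, followed Agtr1a at 0.024 and 0.031. Ablim1 and Dsg2, the latter a desmosomal cadherin, followed Adra1a at 0.025 and 0.047, and Sbk1 and Fam13a followed Adrb1 at 0.020 and 0.044. Wnk4 and Ptgds, the latter a prostaglandin D synthase, lay nearest to Adra1b at 0.044 and 0.055, and Ush1c and Tecrl to Agt at 0.065 and 0.088. Edn1 was followed by Hpgd, which degrades prostaglandins, at 0.044 and by the kinase gene Stk17b at 0.060. Within a wider limit of 0.25 lay 533 genes for Adra1a, 419 for Adrb1, 353 for Agtr1a, 196 for Edn1, 161 for Agt and 100 for Adra1b. Ace, Ednra and Ednrb spanned too little to be ranked.

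Each array was also shifted by the mean of its 12 cardiomyocyte markers, a scaling chosen after the data were seen. On that scale the lower KO array exceeded the higher WT array for 4 of the 9 members, beside 2.21% of all tested probes. The 4 were Adrb1, Adra1a, Adra1b and Agtr1a, and the reverse held for 0 members, beside 0.505%. Subtracting the marker mean moves KO 2 and KO 3 apart for probes that do not follow the markers. The share of all probes with KO above WT was 13.1% before it, so 2.21% is no like measure for members sharing the marker order. Agtr1a was -5.08 and -5.09 on WT 2 and WT 3, and -4.68 and -4.71 on KO 2 and KO 3, a difference of 0.39, and its dim probe was also higher on both KO arrays, by 0.30 on average. Adra1b was -5.30, -5.75, -4.65 and -5.17 in the same order, a difference of 0.62. The margin was small for Adrb1, -6.53 on KO 2 against -6.58 on WT 2, and for Adra1a, -9.86 on KO 2 against -9.96 on WT 3. For Adra1b it was also small, -5.17 on KO 3 against -5.30 on WT 2. The second probes of Adrb1 and Adra1a overlapped between groups on this scale, and Adra1b had no second tested probe. With the median of the same 12 markers in place of the mean, 1 member, Adra1b, kept its KO arrays above its WT arrays, at -5.33 and -5.17 against -5.73 and -5.82, beside 0.678% of all tested probes, and 0 members had the reverse, beside 0.346%. For the same reason as with the mean, 0.678% is no like measure for members sharing the marker order. limma called 0 members on the scale of the marker mean. There limma gave every member the same standard error, 1.60, in place of its own spread, so differences of these sizes could not be called. The order of the arrays for these receptors thus depended on the level set as reference.

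The other genes of the 3 pathways were 36 genes, of which 27 were tested and 0 were called. Of these, 16 were higher in KO on average and 11 were lower, with a median difference of 0.024, and 0 differed by over 2-fold. Tested genes were 4 of 6 other adrenergic receptors, 11 of 11 genes of signal transduction and receptor shut-off, 3 of 5 genes of catecholamine synthesis, uptake and breakdown, 6 of 10 other renin-angiotensin-aldosterone genes and 3 of 4 other endothelin genes. Th, Slc6a2, Ren1, Agtr1b, Agtr2, Mas1 and Edn3 were among those not well above background on both arrays of a group. The groups did not overlap for 3 of the 27, beside 23.9% of all tested probes. Rgs2, which shuts off Gq signalling downstream of the α1 and angiotensin receptors, was 2.37 and 2.77 in WT and 2.98 and 3.002 in KO, a difference of 0.42 ± 0.25 (SE), but its second tested probe gave -0.005. Adra1d, the remaining α1 receptor, was -2.81 and -2.49 in WT and -2.03 and -2.36 in KO, a difference of 0.45 ± 0.26 (SE). Enpep, the aminopeptidase that degrades angiotensin II, was -0.92 and -0.60 in WT and -1.08 and -1.62 in KO, a difference of -0.59 ± 0.31 (SE). None of these 3 passed the test.

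Promoters of 7 of the 9 members were in the RefSeq table of build GRCm38.p6, with 9 start sites in all. Agt and Adrb1 are printed as members with the same array order but different start regions, as the 250 bases before the start site, 5′ to 3′. Capitals mark TATAAA, the only motif searched that was found in these 2, at position -30 of Agt, chr8:124569707-124569956 on the minus strand. The Adrb1 promoter is chr19:56721867-56722116 on the plus strand.
Agt promoter: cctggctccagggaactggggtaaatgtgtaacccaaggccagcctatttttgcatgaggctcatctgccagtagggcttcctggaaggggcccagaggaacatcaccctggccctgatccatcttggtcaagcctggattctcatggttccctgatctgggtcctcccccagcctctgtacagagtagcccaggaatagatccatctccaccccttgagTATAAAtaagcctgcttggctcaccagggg
Adrb1 promoter: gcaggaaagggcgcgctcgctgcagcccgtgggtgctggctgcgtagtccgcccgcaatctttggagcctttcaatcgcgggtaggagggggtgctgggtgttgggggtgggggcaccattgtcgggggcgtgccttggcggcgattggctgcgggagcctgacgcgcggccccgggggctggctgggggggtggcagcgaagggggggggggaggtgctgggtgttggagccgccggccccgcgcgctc
The motifs searched, on both strands, were TATAAA, found in 12.4% of all 32851 promoters of this length, AGATAA or TGATAA for GATA factors in 16.6%, TGACTCA or TGAGTCA for AP-1 in 4.46%, and CACGTG, an E-box, in 6.02%. Among the other members, TATAAA was found on the reverse strand of 1 Ace promoter at -31 and an AP-1 sequence in 1 Adra1b promoter at -198. Matches describe the letters of these windows and no binding.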

How the data were processed

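Left ventricular RNA of WT and KO mice was hybridized to one-colour Whole Mouse Genome arrays of Agilent, 2 arrays per group. For every array the authors deposited the spot intensity from Feature Extraction software (version 10.7.3.1 per the file headers), already background-subtracted and detrended. A log2 table made in GeneSpring was deposited too. In its columns between 99.90% and 99.96% of the values, rounded, were within 0.01 of the log2 signal after quantile normalization, and the median was 6.78. Its normalization is not given in the sources used here.

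Control spots and outlier flags (92 to 116 non-control spots per array) were left out, no spot was saturated, and spots of 1 probe were averaged. Between 68.15% and 72.04% of probes per array were well above background. From the log2 processed signal the array's 75th percentile, a signal of 607.6 to 976.1, was subtracted. KO was compared with WT over 28305 probes by limma 3.58.1 (lmFit and eBayes, R 4.3.3) with Benjamini-Hochberg adjustment. Calls needed adjusted p below 0.05 together with a change of more than 2-fold. The number of arrays limits the precision. All arrays lay on 1 slide scanned on 1 day, WT at positions 1 and 2 and KO at 3 and 4, so slide position and genotype cannot be told apart.

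Gene names came from the files, with older symbols matched through the RefSeq table. All members were named, and of the other pathway genes at most 3 per list, those with the largest differences among genes above background on all arrays whose groups did not overlap. Members, lists and rules were chosen with earlier results of these data known. The fit was run on simulated data with large added changes, at the observed spread and at a smaller one. A minimum of recovered changes was required only at the smaller spread, so passing says nothing on recovery at the observed spread. Alternatives were normexp (offset 50), quantile and median scaling, other filters, the authors' values, the methods' t-test, the array number as a block, the mean of all probes, leaving out each array and, chosen after seeing the data, scaling by cardiomyocyte markers.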

Additional observations from a re-analysis of the deposited data

Results flagged for a closer look

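Xist, which enters no comparison of the members, was bright on WT 2 (log2 signal 14.13) and on KO 2 (log2 signal 13.24), although all samples are labelled male. Neither number 3 array had it well above background, so the signal followed the array number and not the genotype. Its part in the values of the 9 members was not tested.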

How the results depend on the processing

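With all 4 arrays in the fit, 78 of 78 values of the members kept their direction and their side of the threshold under the alternatives planned. So did 32 of 32 values of the other named genes. The filters, the array-number block and the methods' t-test leave the difference itself unchanged, so its direction could not turn under them. The authors' values nearly repeat quantile normalization. The count of called probes was 0 under each of those alternatives and moved to 1, the atrial gene Sln, under scaling by the mean of the cardiomyocyte markers. Unadjusted p-values under 0.05 numbered 410 in the main setting, 1162 with normexp, 723 with no filter, 310 with probes above background on all 4 arrays, 879 with the methods' t-test (0 after Benjamini-Hochberg), 20 with cardiomyocyte scaling, and from 125 to 7278 with an array left out. With the array number as a replicate block 0 probes were called and 602 had an unadjusted p under 0.05. The number 2 minus number 3 differences of WT and KO correlated at 0.57 over 28305 probes, but 2 pairs do not establish a pairing. Normexp moved the median of all probes to 0.13 and gave 1 member, Adra1a, with KO above WT (-1.89 and -2.81 against -2.81 and -3.26) and 1, Ace, with KO below, where 30.1% of all tested probes had KO above and 5.63% below. Leaving out an array turned the direction of 13 of 36 member values, all with 0 calls. It turned 0 of 16 values of the other named genes, which was fixed in advance because their groups do not overlap. Differences ranged from -0.97 to 0.011 for Ace, -0.33 to 1.71 for Adra1a, -0.95 to 2.31 for Adra1b, -0.72 to 1.58 for Adrb1, -1.02 to 1.61 for Agt, -0.94 to 1.84 for Agtr1a, -1.20 to 0.17 for Edn1, -0.50 to 0.30 for Ednra and -0.19 to 0.42 for Ednrb. The median over the members was -0.50 without KO 2 and 1.58 without KO 3. Where 1 array was left, it was assumed to vary like the other group. Slide and scan day were the same for all arrays and gave no block.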
